A study of Homo sapiens with 21 samples.

Results

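Kallikrein-related peptidases are secreted serine proteases encoded side by side in a single gene cluster on chromosome 19. They are made as inactive precursors that other proteases, or other kallikreins, cut into the active form. In stratified epithelia KLK5, which cuts after basic residues as trypsin does, and KLK7, which cuts after aromatic residues as chymotrypsin does, degrade the desmosomal proteins that hold the outermost cells together, and the inhibitor encoded by SPINK5 holds them in check. KLK8 (neuropsin) and KLK6 (also named neurosin and protease M) are expressed in the brain as well as in epithelia, KLK10 was isolated as a gene expressed in normal mammary epithelial cells, and KLK11 is also known as hippostasin or trypsin-like serine protease.

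The genes KLK5, KLK6, KLK7, KLK8, KLK10 and KLK11 were taken by symbol, 6 of the 23201 gene symbols measured. They were followed by bulk RNA-seq in HMLE cells, an immortalized human mammary epithelial line, in which transforming growth factor β (TGFβ) was used to induce epithelial-mesenchymal transition (EMT). The 7 groups were untreated cells (d0) and cells under TGFβ for 1, 4, 7, 10, 15 or 20 days (d1 to d20), with 3 libraries in each group. All groups are the same cell line, were seeded at a common density and differ only in TGFβ as far as the labels say, and the TGFβ dose and any untreated culture kept for the same number of days are not given in the sources used here. Time in culture and TGFβ exposure therefore cannot be told apart. The study calls the libraries biological triplicates, and p-values measure the spread between these libraries.

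The deposited values are reads divided by a size factor per library and are called normalised values here. Libraries held 18847917 to 22667754 reads. Of the 3 treatment check genes, fibronectin (FN1) was higher at every treated timepoint, at log2 fold changes of 5.20 to 6.99, as was vimentin (VIM), at 2.59 to 3.62, while E-cadherin (CDH1) passed a 2-fold decrease only at d20 (log2 fold change -1.33). All 6 basal mammary markers were well above the filter on low values. Of the markers of other cells, PTPRC and CD3E (leukocyte), CDH5 (endothelial) and TYR (melanocyte) had at most 3 reads in every library. The rest had reads, with d0 means of 371 (CD68), 41.3 (PECAM1), 8.33 (VWF), 50.1 (PMEL) and 10.5 (MLANA). Whether other cells were present was not tested. The third listed d7 library stood apart from its timepoint: its root mean square log2 difference from the other d7 libraries was 0.47 and 0.46, against 0.21 to 0.24 for every other pair of libraries within a timepoint. The d7 fold changes of the tested kallikrein genes are given with and without it.

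The expression of 5 of the 6 genes could be tested, and all 5 were lower under TGFβ by d15 and d20. Of these KLK7 fell furthest, to 3.83% of its untreated mean at d20, followed by KLK8 at 9.34%, KLK10 at 11.6%, KLK5 at 12.6% and KLK6 at 33.1%. KLK11, too low for the test, went from 17 to 29 reads per untreated library to at most 2 reads in each library from d10 on. Less RNA per cell and fewer cells that express a gene cannot be told apart in bulk samples.

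**Figure D1:**
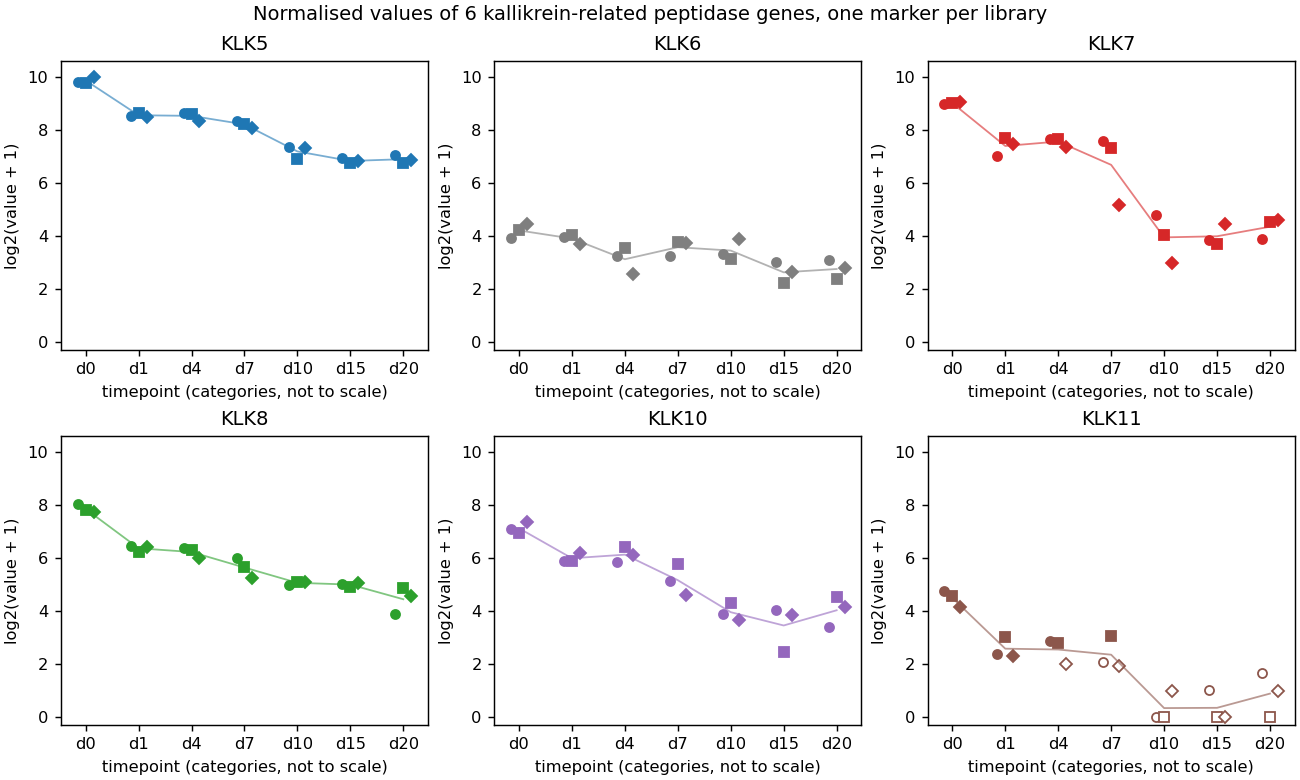
Normalised values of the 6 genes as log2(value + 1), with a marker for each library (circle, square and diamond for the first, the second and the third listed library of a timepoint), an open marker where a library holds at most 3 reads, and a line through the mean of the log2 values. Outside the KLK6 panel the d0 libraries lie above every treated library, and the third listed d7 library of KLK7 (34.4) lies far below the others at d7. The share of all genes that separate from d0 in this way was not computed. Smaller changes can separate too: F2RL1, short of 2-fold on every treated day, did not overlap d0 on any of them, on the higher side.

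KLK5 was the most abundant of the 6 genes. Its normalised values were 902, 879.6 and 1027 in the d0 libraries and 372, 395 and 358 at d1. They were 396, 391 and 323 at d4 and 323, 299 and 265 at d7. No d1, d4 or d7 library reached the lowest d0 library, and the d1 and d4 ranges overlapped. At d10 KLK5 stood at 162, 119.5 and 156, at d15 at 120.4, 106 and 112, and at d20 at 131, 107 and 117. The d10, d15 and d20 ranges overlapped one another in the order of the means (146 ± 23.2, 113 ± 7.31 and 118 ± 12.2, mean ± SD, n = 3), and all lay below the d7 range. On the log2(value + 1) scale the fold change against d0 was -1.32 (SE 0.11, adjusted p = 1.77e-09, limma) at d1 and -2.97 (SE 0.11, adjusted p = 1.21e-15, limma) at d20.

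KLK7 had the largest fitted decrease of the 5 tested genes from d10 on. The d0 libraries stood at 501, 517 and 531, and the d1 libraries at 128, 208 and 176. At d4 the values were 200.9, 202 and 164, which overlapped the d1 range. At d7 they were 189.95, 158 and 34.4, so that the first and second listed libraries resembled d4 and the third was near the later timepoints. At d10 KLK7 was at 26.9, 15.6 and 6.84, at d15 at 13.3, 11.8 and 20.7, and at d20 at 13.8, 22.1 and 23.5. These last ranges overlapped one another, and none of the 9 libraries reached the lowest d7 library. The log2 fold change was -1.62 (SE 0.46, adjusted p = 0.00439, limma) at d1, -5.07 (adjusted p = 2.91e-09, limma) at d10 and -4.67 (adjusted p = 1.24e-08, limma) at d20. At d7 it was -2.33 with all libraries and -1.57 without the third listed one.

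KLK8 fell in smaller steps. It stood at 259.9, 223 and 209.75 in the d0 libraries, at 86.8, 73.8 and 84.3 at d1, and at 82.0, 77.9 and 62.7 at d4. At d7 the values were 62.3, 50.04 and 37.2, just under the lowest d4 library. They were 30.9, 33.0 and 33.2 at d10, 31.6, 28.9 and 32.1 at d15 and 13.8, 28.4 and 22.5 at d20. The d10 and d15 ranges overlapped, and every d20 library lay below every d15 library. The log2 fold change moved from -1.49 (SE 0.20, adjusted p = 2.02e-06, limma) at d1 to -3.41 (SE 0.20, adjusted p = 3.16e-12, limma) at d20. In the GENCODE annotation KLK8 shares 747 exon bases with AC011473.4, a protein-coding gene model on the same strand that also shares 787 exon bases with KLK9, so the split of reads between KLK8 and KLK9 is uncertain.

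KLK10 was at 134, 120.4 and 163 in the d0 libraries, at 57.5, 58.5 and 72.4 at d1 and at 56.8, 84.7 and 67.6 at d4. No d1 or d4 library overlapped d0, and the d1 and d4 ranges overlapped each other. At d7 the values spread from 23.3 in the third listed library to 33.8 and 53.2 in the first and second. They were 13.9, 18.5 and 11.7 at d10, 15.3, 4.52 and 13.5 at d15 and 9.54, 22.1 and 16.6 at d20, with overlapping ranges. The log2 fold change was -1.13 (SE 0.35, adjusted p = 0.00836, limma) at d1, -3.67 (adjusted p = 4.08e-09, limma) at d15 and -3.10 (adjusted p = 1.12e-07, limma) at d20. At d4 it was just under a 2-fold decrease (log2 fold change -0.997, adjusted p = 0.0148, limma), and the adjusted p rose to 0.0583 without the third listed d0 library and to 0.0613 without the first listed d4 library.

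KLK6 was low throughout, and at d15 and d20 it changed less than the other tested genes. Its values were 14.2, 17.8 and 20.8 in the d0 libraries and 14.6, 15.4 and 11.9 at d1, with overlapping ranges. The d1 difference was not detectable at this depth and number of libraries (log2 fold change -0.31, SE 0.32, adjusted p = 0.426, limma). The values were 8.41, 10.7 and 4.90 at d4, 8.44, 12.5 and 12.1 at d7 and 8.96, 7.77 and 13.7 at d10. By d4 KLK6 had fallen (limma log2 fold change -1.09, adjusted p = 0.00459) and it missed the threshold at d7 (-0.63, adjusted p = 0.0856, limma, and -0.71, adjusted p = 0.109, without the third listed d7 library). At d10 the fall (-0.76, adjusted p = 0.0407, limma) did not hold under DESeq2 (adjusted p = 0.0906), quantile normalization (0.182) or when a d0 library was left out (0.0844 for the second listed, 0.13 for the third listed) or a d10 library (0.102 for the first listed, 0.144 for the second listed). The lowest libraries came last, with 7.14, 3.62 and 5.18 at d15 and 7.42, 4.21 and 5.88 at d20, all below d0. There the log2 fold change was -1.58 (SE 0.32, adjusted p = 0.000133, limma) and -1.46 (SE 0.32, adjusted p = 0.000468, limma). KLK6 is also a member of the gene signature that the study derived from tumour cells, not from these libraries. For this time course the study reports a rise of almost all signature genes during EMT, whereas KLK6 was lower at d15 and d20 here. Whether the study counts KLK6 among the exceptions is not stated in its text.

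KLK11 had 29, 27 and 17 reads in the d0 libraries, or normalised values of 25.8, 22.9 and 16.8. At d1 the values were 4.18, 7.18 and 3.97, at d4 6.31, 5.84 and 2.94, and at d7 3.17, 7.30 and 2.79. No treated library reached the lowest d0 library, and the d1, d4 and d7 ranges overlapped. From d10 on every library was at or below 3 reads: 0, 0 and 1 read at d10, 1, 0 and 0 at d15 and 2, 0 and 1 at d20. Taking 3 reads per library as the floor, KLK11 was at least 7.42-fold lower than untreated by d10, and the bounds for d15 and d20 were 7.38-fold and 7.07-fold, a limit that covers counting error only. The mean over the 21 libraries was under the filter of 10, so KLK11 had no main test. With no filter, limma gave a log2 fold change of -1.92 (adjusted p = 0.00127) at d1, and edgeR on the recovered reads gave -2.08 (adjusted p = 6.82e-05).

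A gene was called where it changed 2-fold or more from d0 and its adjusted p was below 0.05. At d1, 4 of the 5 tested genes were called lower (KLK5, KLK7, KLK8 and KLK10), where 3.87% of all 13343 tested genes were. At d4 the 4 genes were KLK5, KLK6, KLK7 and KLK8, against 5.03% of all genes, and at d7 they were those of d1, against 2.93%. The d7 count was also 4 without the third listed d7 library, with log2 fold changes of -1.58 for KLK5, -1.57 for KLK7, -2.02 for KLK8 and -1.68 for KLK10, against -1.66, -2.33, -2.21 and -1.96 with it. The count was again 4 at d10 (7.34% of all genes), without KLK6, and it was 5 of 5 at d15 (8.66%) and at d20 (4.72%). The KLK6 means at d4, d15 and d20 (8.01, 5.31 and 5.84) lay under the filter on low values, and its highest mean was at d0 (17.6). A gene this low is tested only if it is higher at another timepoint. The KLK6 calls in these counts are therefore not independent of the filter. No tested gene of the group was called higher on any day, where 6.47%, 9.68%, 8.79%, 6.94%, 11.7% and 7.51% of all genes were called higher on the 6 treated days in turn. The median log2 fold change of the 5 genes was -1.32, -1.34, -1.96, -2.79, -3.04 and -3.10 on those days, while the median over all tested genes was at most 0.03 in size. KLK5, KLK7 and KLK8 were called lower at all 6 treated timepoints, as were 141 genes in all (1.06%). The 6 comparisons share the d0 libraries.

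**Figure D2:**
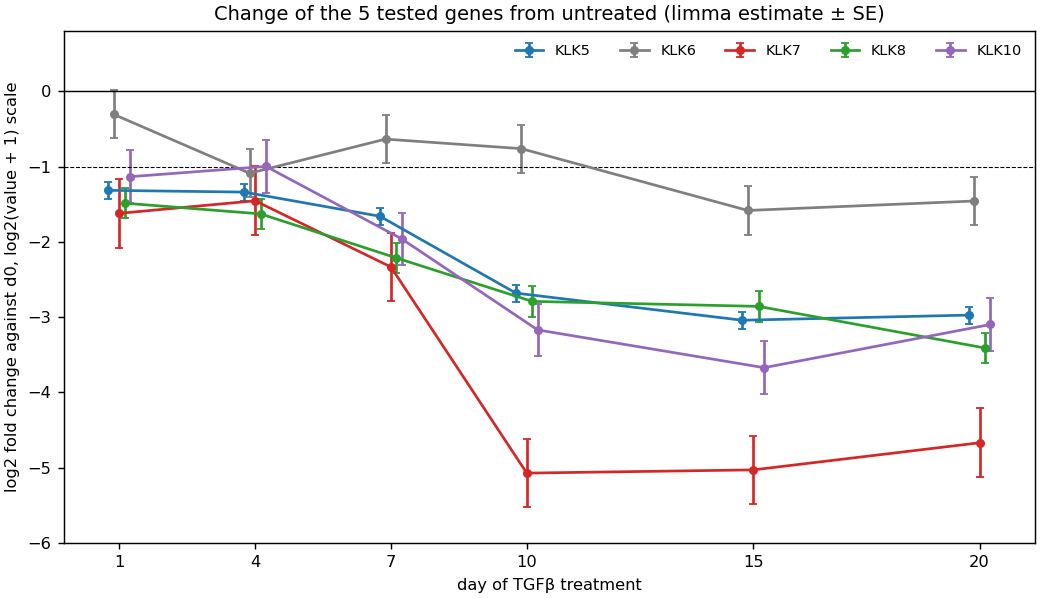
Log2 fold change against d0 on the log2(value + 1) scale, with its limma standard error, for the 5 tested genes by day of TGFβ, with a dashed line at a 2-fold decrease. KLK7 separates from the others at d10 (-5.07), and KLK6 stays nearest to 0 from d7 on (-1.46 at d20).

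Changes between neighbouring timepoints were tested in the same model. After the first day, 2-fold steps were found between d7 and d10 and between no other neighbours. There KLK7 fell by 2.74 on the log2 scale (adjusted p = 1.75e-05, limma), KLK10 by 1.21 (adjusted p = 0.0041, limma) and KLK5 by 1.02 (adjusted p = 6.38e-08, limma), 3 of 5 genes called lower where 9.09% of all genes were. KLK8 fell by 0.58 (adjusted p = 0.0149, limma), short of 2-fold, and KLK6 did not pass (log2 difference -0.13, adjusted p = 0.733, limma). Without the third listed d7 library the steps were larger, -3.51 for KLK7, -1.49 for KLK10, -1.10 for KLK5 and -0.77 for KLK8. With quantile normalization KLK7 alone was still called (log2 difference -2.32), while KLK10 stood at -0.78 (adjusted p = 0.0537, limma), KLK5 at -0.85 and KLK8 at -0.14 (adjusted p = 0.548, limma).

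The other steps were under 2-fold. Between d1 and d4 KLK6 fell by 0.78 (adjusted p = 0.0373, limma), a difference that did not hold under DESeq2 (adjusted p = 0.127). Between d4 and d7 KLK10 fell by 0.96, KLK8 by 0.59 and KLK5 by 0.32. The KLK5 step lost the threshold without the first (adjusted p = 0.09) or the second (0.0809) listed d4 library and with only these timepoints in the model (0.0654, limma). Without the third listed d7 library the adjusted p of this step was 0.0585 for KLK10 and 0.0866 for KLK8 (limma), and KLK7 stood at -0.11. Between d10 and d15 KLK5 fell by 0.36 and KLK6 by 0.82, and between d15 and d20 KLK8 fell by 0.55 (adjusted p = 0.0183, limma). The KLK6 step lost the threshold under DESeq2 (adjusted p = 0.0954), and the KLK8 step did so under edgeR (adjusted p = 0.0634), under DESeq2 (0.076) and without the first listed d20 library (0.183).

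The ratio of KLK7 to KLK5 within a library, which size factors do not touch, was compared after both had been seen. It was 0.553 ± 0.035 (mean ± SD, n = 3) at d0, 0.453 ± 0.0977 at d1 and 0.509 ± 0.00496 at d4. At d7 it was 0.588 and 0.53 in the first and the second listed library and 0.13 in the third. The ratio dropped to 0.113 ± 0.0627 at d10 and stood at 0.136 ± 0.043 at d15 and 0.171 ± 0.0571 at d20, and every one of these 9 libraries lay below every d0 library. The log2 difference from d0 was -2.50, -2.07 and -1.76 for these timepoints, each with an exact permutation p of 0.1 (two-sided), the smallest that 3 against 3 libraries can give. The d4 libraries also all lay below d0, with the same exact permutation p of 0.1, at a log2 difference of -0.12.

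**Figure D3:**
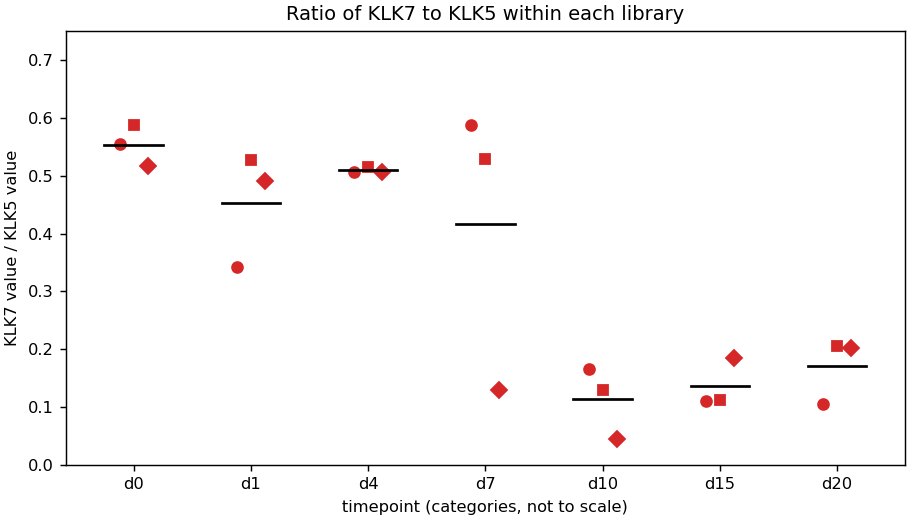
Normalised value of KLK7 divided by that of KLK5 in each library (circle, square and diamond for the first, the second and the third listed library), with a bar at the mean of the 3 libraries of a timepoint. The means lie between 0.416 and 0.553 up to d7 and between 0.113 and 0.171 from d10 on.

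To rank levels between genes, values were taken per kilobase of annotated exon, while the KLK7 to KLK5 ratio above has no length correction. At d0 KLK5 stood at 566 normalised reads per kilobase, KLK7 at 212, KLK8 at 124, KLK10 at 36.2, KLK6 at 8.91 and KLK11 at 7.02. At d20 the order was KLK5 at 71.7, KLK8 at 11.6, KLK7 at 8.13, KLK10 at 4.18, KLK6 at 2.95 and KLK11 at 0.332. KLK8 thus stood above KLK7 per kilobase at d20, and the reverse held at d0. Their normalised values overlapped at d20 (13.8 to 28.4 for KLK8 and 13.8 to 23.5 for KLK7), and the KLK8 reads are uncertain as stated above. KLK5 and KLK6 share 202 and 401 exon bases with the antisense model AC011483.2, and KLK10 shares 240 with the antisense model AC011473.2. Whether the counting used strand is not given in the sources used here, so reads of these partners cannot be told apart. Across the 21 libraries, which share timepoints and so are not independent, Pearson correlations of log2 values were 0.86 to 0.95 among KLK5, KLK7, KLK8, KLK10 and KLK11 and 0.60 to 0.77 between KLK6 and each of the others.

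The 6 genes lie next to one another in the annotated order KLK5, KLK6, KLK7, KLK8, KLK9, KLK10, KLK11, with KLK9 between KLK8 and KLK10. KLK9 was at 57.9, 71.2 and 75.2 in the d0 libraries, at 9.41, 4.10 and 13.9 at d1 and at 4.24, 5.26 and 2.94 at d20. It was thus low from the first day on, with log2 fold changes of -2.89 at d1 and -3.76 (adjusted p = 3.24e-09, limma) at d20, and at d15 it was at the floor, at least 23.0-fold lower than untreated. As stated above, its reads may be shared with KLK8. Towards one end of the cluster KLK1, the tissue kallikrein, was at a mean of 59.4 at d0 and 36.2 at d20 (log2 fold change -0.71, adjusted p = 0.000913, limma) and was called lower only at d10 (-1.12). KLK2, KLK3, KLK4, KLK12 and KLK15 had at most 3 reads in every library, and KLK13 (mean 3.28 at d0) and KLK14 (6.54 at d0) were too low to test. Of the 9 other kallikrein genes 2 were tested, and both were called lower on at least 1 day, as were 15.4% of all genes. The treated means of KLK9 were at most 9.13 (d1), all under the filter on low values. KLK9 was thus tested only because of its d0 mean (68.1), and such a gene could hardly be called other than lower. The count of 2 therefore does not show that the rest of the family fell.

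Of the 4 genes chosen beyond the ends of the cluster, 2 were tested and 0 were called lower on any day, where 15.4% of all genes were. With 2 genes, a count of 0 does not set them apart from genes in general. ACPT and SIGLEC9 were too low to test. C19orf48 stood at a mean of 2619 at d0 and 2397 at d20 (log2 fold change -0.13, adjusted p = 0.0339, limma). It was lower, short of 2-fold, at d4 (-0.49, adjusted p = 2.01e-08, limma), d7 (-0.52, adjusted p = 1.28e-08, limma) and d15 (-0.42, adjusted p = 1.66e-07, limma). CTU1, a tRNA thiolation enzyme, stood at 46.2 at d0 and 53.7 at d20 (log2 fold change 0.24, adjusted p = 0.236, limma), and was called higher at d15 (1.07), where rescaling, quantile normalization or a pseudocount of 10 left no call.

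**Figure D4:**
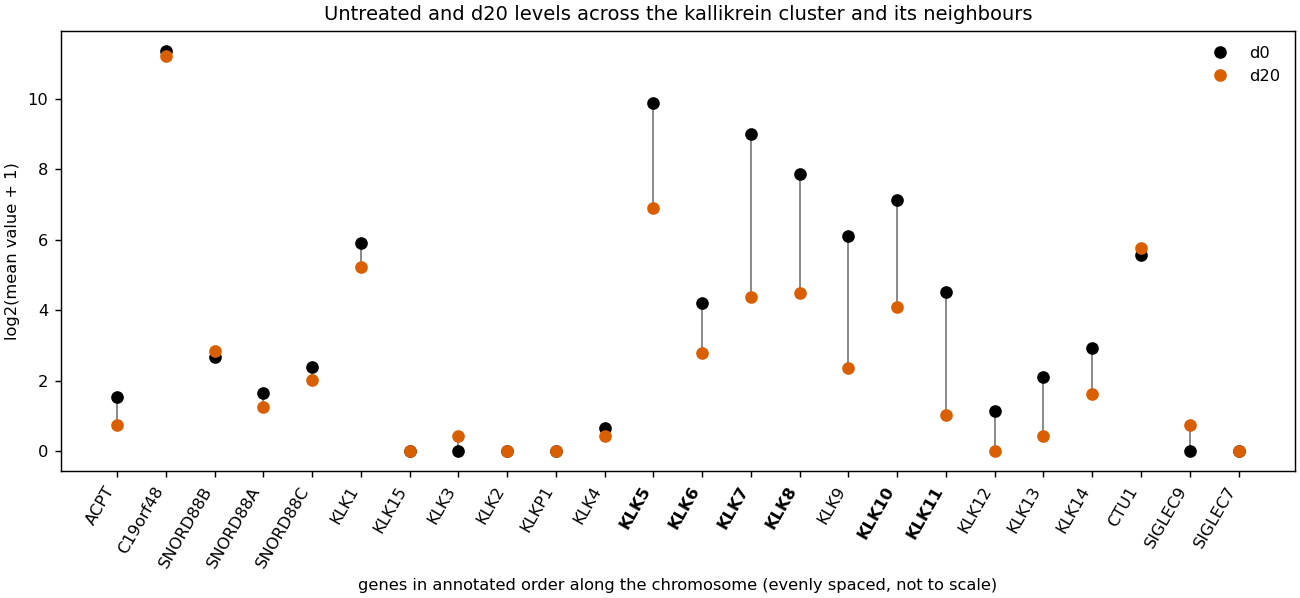
Mean normalised value at d0 (black) and d20 (orange) as log2(mean + 1) for the kallikrein genes and their neighbours, evenly spaced in annotated order, with the 6 genes of interest in bold. From KLK5 to KLK11 every d20 mean lies below its d0 mean. Outside that stretch KLK1 (59.4 and 36.2) also lies lower at d20, as do KLK13 (3.28 and 0.35) and KLK14 (6.54 and 2.06) at low values. The means of CTU1 (46.2 and 53.7) and C19orf48 (2619 and 2397) lie close together.

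Promoter sequence is shown because the genes fell together and lie together. RefSeq windows of the 250 bases before annotated starts (GRCh38.p14, minus strand) were on hand for KLK5, KLK6, KLK7, KLK10 and KLK11, 9 windows in all, and KLK8 had none. They were searched on both strands for CACCTG, the E-box that ZEB and SNAI repressors bind, for CAGACA, a SMAD element, for TGANTCA, the AP-1 element, and for AACNNGTT, the grainyhead-like element. CACCTG was in 3 of 9 windows (KLK6, KLK7 and KLK11), against 17.5% of 35116 windows of all genes, and CAGACA in 2 of 9 (KLK6 and KLK11), against 13.6%. TGANTCA and AACNNGTT were in none, against 6.57% and 3.00%. Windows of 1 gene can overlap, and a match says only that these letters are there. The 4 windows below are the single KLK5 window, which has no match, and the 3 windows with a CACCTG match, written 5′ to 3′ and ending at the base before the start, with matches in capitals.
KLK5, chr19:50953039-50953288: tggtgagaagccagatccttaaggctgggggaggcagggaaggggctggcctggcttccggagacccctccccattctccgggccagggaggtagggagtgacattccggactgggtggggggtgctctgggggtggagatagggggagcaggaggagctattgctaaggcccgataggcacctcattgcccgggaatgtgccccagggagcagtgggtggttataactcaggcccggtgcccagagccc
KLK6, chr19:50969592-50969841: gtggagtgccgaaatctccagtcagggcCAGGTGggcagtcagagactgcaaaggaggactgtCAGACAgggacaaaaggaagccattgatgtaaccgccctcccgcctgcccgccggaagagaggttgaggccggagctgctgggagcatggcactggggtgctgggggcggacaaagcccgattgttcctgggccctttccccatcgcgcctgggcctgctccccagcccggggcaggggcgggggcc
KLK7, chr19:50983816-50984065: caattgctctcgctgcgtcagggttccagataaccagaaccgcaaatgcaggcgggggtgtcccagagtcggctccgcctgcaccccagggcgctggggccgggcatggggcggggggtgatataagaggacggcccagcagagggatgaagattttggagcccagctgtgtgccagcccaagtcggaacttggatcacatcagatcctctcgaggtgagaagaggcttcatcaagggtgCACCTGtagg
KLK11, chr19:51026617-51026866: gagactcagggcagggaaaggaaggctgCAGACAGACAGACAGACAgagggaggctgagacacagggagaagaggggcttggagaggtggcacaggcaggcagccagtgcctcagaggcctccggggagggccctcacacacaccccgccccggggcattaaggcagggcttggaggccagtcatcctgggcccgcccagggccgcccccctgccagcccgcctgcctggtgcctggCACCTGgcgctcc
The KLK6 window holds CACCTG, as CAGGTG on this strand, at position -222 and CAGACA at -187. In the KLK7 window, CACCTG starts at -10. The KLK11 window has CACCTG at -13 and 4 overlapping copies of CAGACA, the first at -222. All other windows of KLK7 and KLK11 hold no match, and for both genes these include the most upstream window. Both KLK10 windows and the KLK5 window hold none of the 4 motifs.

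Genes for proteins that act on the kallikreins moved in both directions. Of 8 inhibitors, 5 were tested, with 3 called lower and 3 called higher on at least 1 day (15.4% and 16.5% of all genes), 2 of them in both directions. SPINK5, whose product inhibits KLK5 and KLK7, stood at 94.3, 100.1 and 90.04 in the d0 libraries, at 36.6, 39.0 and 49.6 at d1 and at 15.9, 17.9 and 17.6 at d20. It was lower at every treated timepoint, with log2 fold changes of -1.18 at d1 and -2.40 (adjusted p = 7.12e-06, limma) at d20, and in the third listed d7 library (20.48) it was also far below the others of d7 (66.5 and 62.5). SERPINA1, α1-antitrypsin, was higher, with a mean of 536 at d0 and 1457 at d20 (log2 fold change 1.44, adjusted p = 4.65e-17, limma). SERPINA3, α1-antichymotrypsin, and SERPINA5, the protein C inhibitor, went both ways: SERPINA3 stood at a mean of 672 at d0, 1918 at d4, 139 at d10, 1395 at d15 and 153 at d20.

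Of the 7 proteases that can activate kallikreins or related zymogens and their inhibitors, 6 were tested, with 2 called lower and 2 called higher on at least 1 day (15.4% and 16.5% of all genes), or 4 and 5 with no minimum fold change. ST14, the membrane protease matriptase, fell from a mean of 4602 ± 74.8 (SD, n = 3) at d0 to 1235 ± 60.2 at d20 (log2 fold change -1.90, adjusted p = 9.47e-19, limma). PRSS8 (prostasin) was called lower at d10 (-1.27) and d20 (-1.08). PRSS3 (mesotrypsin), whose sequence is close to that of other trypsinogens so that its reads are uncertain, was higher at every treated timepoint, with a mean of 87.0 at d0 and 326 at d20. TMPRSS15 (enteropeptidase) was called higher at d15 (2.22) and d20 (2.30). SPINT1 and SPINT2, inhibitors of matriptase and prostasin, were within 2-fold of d0 on every day.

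Of 13 substrates and receptors, 11 were tested, with 4 called lower and 3 called higher on at least 1 day (15.4% and 16.5% of all genes). The 3 called higher were L1CAM, APP (log2 fold change 1.01 at d7) and F2R (1.01 at d15). The 4 called lower were DSC1, CDSN, FLG and CDH1. The higher count was 1 when libraries were rescaled to the same total and 8 with no minimum fold change. DSC1 (desmocollin 1), a desmosomal cadherin of differentiated epidermis, had a mean of 31.3 at d0 and 5.35 at d20 (log2 fold change -2.59, adjusted p = 5.15e-06, limma), but at d7 (30.4) it did not differ detectably from d0 (log2 fold change -0.12, adjusted p = 0.803, limma). The d20 values of DSC1 ran from 2.10 to 10.8, with 2 of the 3 libraries at the floor. DSG1 (desmoglein 1), under the filter, was at a mean of 51.6 at d0 and 0.68 at d20, and CAMP, the cathelicidin precursor that KLK5 and KLK7 process in skin, at 17.1 and 2.76. CDSN (corneodesmosin) was called lower only at d15 (-1.32) and stood at -0.03 at d20, and FLG (filaggrin) only at d4 (-1.22). F2RL1, the protease-activated receptor PAR2, rose at every treated timepoint by 0.47 to 0.72 on the log2 scale, short of 2-fold. L1CAM, an adhesion molecule, was called higher on every day, with a mean of 351 at d0 and 1783 at d20 (log2 fold change 2.34, adjusted p = 6.92e-20, limma).

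**Figure D5:**
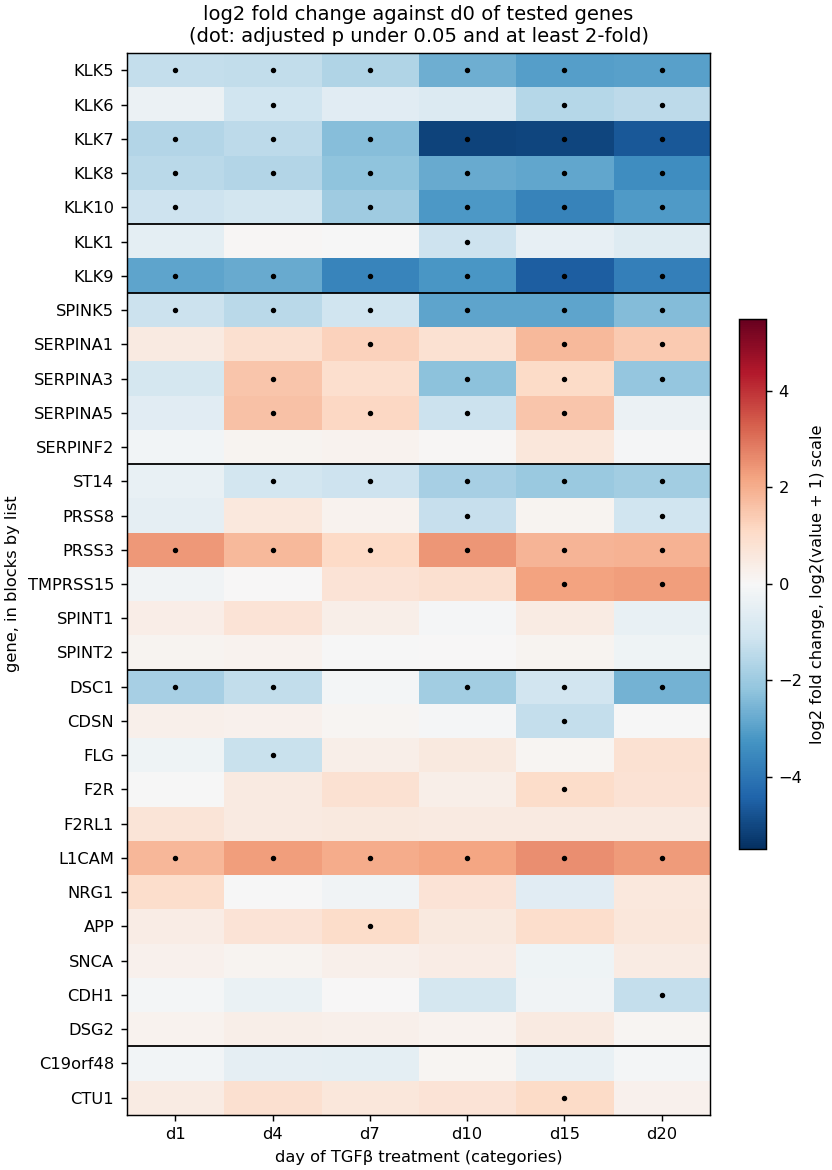
Log2 fold change against d0 by day of TGFβ for every tested gene of the kallikrein group, the rest of the family, the inhibitors, the activating proteases and their inhibitors, the substrates and receptors and the flanking genes, in blocks from top to bottom, with a dot where a gene was called (2-fold or more, adjusted p below 0.05). The top block is blue (lower) throughout, KLK7 deepest (-5.07 at d10), and the lower blocks hold both colours.

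Markers of other states moved beside these genes. The general epithelial marker EPCAM was lower at every treated timepoint, with a mean of 2106 at d0 and 402 at d20, and its part in the kallikrein decrease was not tested. The summed value of the 6 basal markers was 345795 to 370400 in the d0 libraries, 354341 to 718359 at d7, 219916 to 224211 at d10, 505483 to 522336 at d15 and 279514 to 282557 at d20. Of these markers 2 were called lower and 3 higher on at least 1 day (15.4% and 16.5% of all genes), with KRT17 in both directions. Of the 3 endothelial markers PECAM1 fell (41.3 at d0, 12.2 at d20), with a summed level of 47.2 to 54.3 at d0 and 10.4 to 27.4 under treatment, while CDH5 was at the floor in every library. The summed level of the 3 melanocyte markers was 55.2 to 66.3 at d0, 73.4 to 90.5 at d15 and 43.1 to 49.8 at d20, with TYR at the floor. For the 3 leukocyte markers it was 368 to 374 at d0 and 624 to 669 at d20, all but a few reads of it CD68. Of 7 luminal markers 5 were tested, KRT18 and ESR1 were called lower on at least 1 day (15.4% of all genes) and ELF5 was at the floor.

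The genes whose log2 values followed each member most closely over the 21 libraries, among genes with a mean of at least 50, are given as a description. For KLK5 they were ST14 (r = 0.96), the phosphatase gene PHLPP1 (0.958) and TPD52 (0.952). For KLK7 they were MPZL2 (0.965), an epithelial adhesion gene, A2ML1 (0.964), a protease inhibitor of the α2-macroglobulin family, and IDH2 (0.961). For KLK8 they were RASEF (0.972), HOOK1 (0.963) and MAL2 (0.952), and for KLK10 they were MPZL2 (0.925), A2ML1 (0.924) and TPD52 (0.922). The KLK11 profile was closest to IL1RN (0.944), the interleukin-1 receptor antagonist, IKZF2 (0.937) and S100A9 (0.936). KLK6 had weaker matches, OVOL2 (0.852), SECISBP2 (0.852) and CKMT1A (0.85), the last of which has a near-identical copy and uncertain reads. With Spearman correlation 5 of these 18 pairs recurred, and without the third listed d7 library 15 did.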

How the data were processed

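RNA-seq of 21 HMLE libraries was analysed from a table of 23201 gene symbols. The authors deposited a normalised signal per gene and library, reads divided by a size factor for the library. The submitters' processing notes name STAR 2.7, Salmon 1.4 and the build hg19, with no roles given. Values were turned back into whole reads, and 100% of the low values in every library lay within 0.1 read of a whole number. Higher values were not checked in this way. No column was left unmapped.

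Genes with a mean of at least 10 (13343) entered a limma 3.58.1 model of log2(value + 1) under R 4.3.3 (moderated by a mean-variance trend), with all 7 timepoints in a single model and Benjamini-Hochberg adjustment over all tested genes within each contrast. Fold changes on this scale understate those of low genes. A call needed an adjusted p under 0.05, and at least 2-fold for counts. Values of 3 reads or fewer were taken as the floor. Columns carry no replicate numbers, so libraries are named by listing order. The model was tested on simulated data. Alternatives used edgeR 4.0.16 and DESeq2 1.42.0 on recovered reads, other scalings, filters and pseudocounts, and single libraries left out.

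The kallikrein genes and the gene lists were chosen with earlier results of these data known. Named are all 6 kallikrein genes, list genes on which a count turns and, per kallikrein gene, the 3 genes with the highest correlation. Others complete a count or were chosen after their values were seen (F2RL1, DSG1, CAMP, KLK13, KLK14). Exon lengths and overlaps came from GENCODE 29, and promoters from RefSeq on GRCh38.p14, a build other than that of the files, so no coordinate of the files was used.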

Additional observations from a re-analysis of the deposited data

Results flagged for a closer look

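In 3 genes the change from d0 differed between d7 and d10 by the test of the difference itself (limma), a step of at least 2-fold: the log2 difference of d10 from d7 was -2.74 for KLK7, -1.21 for KLK10 and -1.02 for KLK5. The d7 group includes the library that stood apart, in which KLK7 (34.4) was at 0.198 times the mean of the other d7 libraries (174), KLK10 (23.3) at 0.535 times and KLK5 (265) at 0.853 times. Without it the differences were -3.51, -1.49 and -1.10. With groups of 3 libraries, single outlying libraries were not tested.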

How the results depend on the processing

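Over 75 results and 947 alternative values, 890 did not change in call or direction, or, for counts, differed by less than 1.5 times, and 0 changed direction. The counts of KLK genes lower than d0 stayed within 1.5 times under every alternative run, a margin that lets 1 gene in or out. At d4 the count was 3 to 5 with single libraries left out. KLK6 did not keep a 2-fold fall under every alternative, its smallest log2 fold change being -0.62 at d4, -0.85 at d15 and -0.80 at d20. The counts of 5 at d15 and d20 thus include a gene not called throughout. The count of KLK genes lower at d10 than at d7, 3 as reported, was 1 with a pseudocount of 10 and 1 with quantile normalization. Of the rest of the family, 2 were called lower as reported, 1 with a pseudocount of 10 or quantile normalization and 4 with no filter on low values (more genes tested). With no minimum fold change the activating proteases and their inhibitors had 4 lower and 5 higher, the substrates and receptors 8 higher and the flanking genes 1 lower, the last 0 as reported. Rescaling each library to the same total left 1 substrate or receptor higher (3 as reported). The flanking gene called higher (1) was lost, giving 0, with a pseudocount of 10, rescaling or quantile normalization. Spearman correlation kept 5 of the 18 most similar pairs. The cause of these shifts was not tested. Among single genes 39 values lost the threshold and 4 passed it, the latter all KLK6 at d7 (adjusted p 0.0241 to 0.0424, in limma or edgeR). For KLK5, KLK7 and KLK8 against d0 no alternative ended the call at adjusted p under 0.05. No paired analysis was possible because the table's columns give the timepoint and no replicate number. Depth limits KLK11, which had at most 2 reads in each library from d10, and KLK6, with a mean of 17.6 at d0.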
